A study of Mus musculus with 18 samples.

Results

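The liver open chromatin of DBA/2J mice was set against that of 6 other inbred strains to find the sites that were open in DBA/2J alone, the sites that were open in every strain but DBA/2J, and the shared sites at which the DBA/2J peak ranked higher or lower than in the others. All mice were males given a high-fat, high-sucrose diet for 8 weeks from 8 weeks of age, with 2 mice for each of 9 strains and 18 samples in all. The strains were DBA/2J, compared with A/J, C57BL/6J, BALB/cJ, CBA/J, AKR/J and C3H/HeJ, and the recombinant inbred BXH2/TyJ and BXH19/TyJ. The recombinant strains were not used to choose sites, but they derive from C57BL/6J and C3H/HeJ and so are not a fully separate check. Every strain received the diet, so no strain has a control diet in these data. Peaks of the 7 inbred strains were merged wherever they overlapped, which gave 50121 autosomal sites. DBA/2J had a peak, overlapping by at least 1 bp, at 24082 of them. Of the 50121 sites, 1228 were called in DBA/2J only, 980 were missing in DBA/2J only and 13909 were called in all 7 strains.

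Open chromatin is DNA from which nucleosomes have been displaced, as at active promoters and enhancers. FAIRE-seq, the assay used, fixes chromatin with formaldehyde, separates DNA free of nucleosomes by phenol extraction, and sequences it. The liver adjusts lipid, glucose and amino acid metabolism to the diet, and the transcription factors that run these programmes bind largely to distal enhancers, while many promoters are open in most cell types. DBA/2J is one of the oldest inbred mouse strains and a parent of the BXD family of recombinant strains.

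A peak's strength was taken as its percentile within its own strain's list, so that 100 marks the strongest peak of that strain. A site within 1000 bp of the start of a protein-coding gene was called a promoter site, any other site distal, and each site was given to the gene with the nearest start, which need not be the gene it acts on. Both mice of a strain had been combined into 1 list by the authors, so no value has a replicate error, and the lists hold no read depth. Intervals on shares are exact Clopper-Pearson 95% intervals that cover counting error only, and neighbouring sites are not independent. In whole liver, a peak carried by fewer cells and a peak weaker in each cell cannot be told apart.

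The strongest promoter and distal sites of each kind are printed here as 200 bases of the C57BL/6J reference (mm9, plus strand), centred on the DBA/2J summit for sites called in DBA/2J only and on the middle of the site for sites missing there. They are not DBA/2J alleles. Capitals mark matches on either strand to 8 short motifs searched in every site: GGGCGG (the GC box), CCAAT (the CCAAT box), AGGTCA (a nuclear receptor half-site), TTGCNNAA (a C/EBP core), TTCNNNGAA (a STAT core), TGTTTAC (a forkhead core), CCGGAAG (an ETS core) and CAAAGTCCA (an HNF4 core). Matches of different motifs were counted separately, also where they overlapped. The first 4 sequences are sites called in DBA/2J only, at Gm13290 (chr4:88418173-88418372), Khnyn (chr14:56504802-56505001), Atp6v1h (chr1:5099465-5099664) and Gm6483 (chr8:19694240-19694439).
Gm13290: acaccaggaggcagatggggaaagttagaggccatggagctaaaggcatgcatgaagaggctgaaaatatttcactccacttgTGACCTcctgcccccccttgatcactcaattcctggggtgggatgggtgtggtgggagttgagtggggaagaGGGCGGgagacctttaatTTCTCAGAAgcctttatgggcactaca
Khnyn: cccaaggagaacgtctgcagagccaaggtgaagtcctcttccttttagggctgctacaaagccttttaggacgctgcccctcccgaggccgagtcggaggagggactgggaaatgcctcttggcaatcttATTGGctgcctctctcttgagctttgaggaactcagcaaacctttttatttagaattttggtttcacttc
Atp6v1h: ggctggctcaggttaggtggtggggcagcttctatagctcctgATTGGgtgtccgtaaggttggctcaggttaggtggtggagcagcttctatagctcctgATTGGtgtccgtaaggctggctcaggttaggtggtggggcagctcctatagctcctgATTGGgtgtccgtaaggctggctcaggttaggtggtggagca
Gm6483: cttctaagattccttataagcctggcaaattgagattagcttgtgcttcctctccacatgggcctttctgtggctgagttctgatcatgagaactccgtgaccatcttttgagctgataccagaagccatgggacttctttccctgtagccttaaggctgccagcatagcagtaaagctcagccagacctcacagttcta
The next 4 are sites missing in DBA/2J only, at Ndel1 (chr11:68666287-68666486), Mapk7 (chr11:61307639-61307838), Rps6ka1 (chr4:133369819-133370018) and Krr1 (chr10:111272099-111272298).
Ndel1: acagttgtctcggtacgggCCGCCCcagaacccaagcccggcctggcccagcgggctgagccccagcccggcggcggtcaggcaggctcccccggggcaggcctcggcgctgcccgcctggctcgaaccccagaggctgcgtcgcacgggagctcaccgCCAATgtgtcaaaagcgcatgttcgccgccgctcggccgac
Mapk7: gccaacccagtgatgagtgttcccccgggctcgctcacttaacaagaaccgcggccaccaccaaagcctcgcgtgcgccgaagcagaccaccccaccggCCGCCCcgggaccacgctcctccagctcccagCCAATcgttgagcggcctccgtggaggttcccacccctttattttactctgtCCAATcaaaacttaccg
Rps6ka1: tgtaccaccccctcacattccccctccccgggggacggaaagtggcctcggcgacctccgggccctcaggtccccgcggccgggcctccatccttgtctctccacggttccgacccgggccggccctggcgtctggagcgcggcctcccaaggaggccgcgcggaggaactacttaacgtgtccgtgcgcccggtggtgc
Krr1: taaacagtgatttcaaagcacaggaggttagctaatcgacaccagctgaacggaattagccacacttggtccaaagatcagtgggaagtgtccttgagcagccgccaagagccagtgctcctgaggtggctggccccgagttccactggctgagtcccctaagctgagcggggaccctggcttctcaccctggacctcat

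Both missing promoters printed here held a GC box and at least 1 CCAAT match, which does not describe missing promoters as a class (shares below). The Atp6v1h window was a tandem repeat: shifted by 58 bases it matched itself at 67.6% of positions, while the best shift of the other 7 windows gave 33.5% to 40.5%. The CCAAT match, on the opposite strand, recurred 3 times in it. The Gm6483, Rps6ka1 and Krr1 windows held no match.

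Over the 300 bp at the centre of every site, GGGCGG was found in 8.96% of sites called in DBA/2J only and 33.8% of sites missing in DBA/2J only, against 27.4% of all autosomal sites. Among promoter sites alone the shares were 9.55% of those called in DBA/2J only, 57.4% of those missing there and 53.9% of all. CCAAT stood in 31.4% of sites called in DBA/2J only and 25% of those missing, against 29.6% of all. Among promoter sites alone, CCAAT stood in 32.5% of those called in DBA/2J only and 19.1% of those missing there, against 25.8% of all. AGGTCA stood in 27.0% of DBA/2J-only and 25.3% of missing sites, against 25.4% of all. TTGCNNAA stood in 12.3% of DBA/2J-only and 8.78% of missing sites, against 12.6% of all, and TTCNNNGAA in 7.65% of DBA/2J-only and 6.84% of missing sites, against 7.54% of all. TGTTTAC was found in 4.15% of DBA/2J-only and 3.16% of missing sites, against 4.60% of all. CCGGAAG stood in 2.77% of DBA/2J-only and 5.41% of missing sites, against 5.72% of all, and CAAAGTCCA in 0.489% of DBA/2J-only and 1.12% of missing sites, against 1.51% of all. The median number of CpG dinucleotides in these 300 bp was 5 at sites called in DBA/2J only and 9 at sites missing there, against 7 at all sites. Among promoters it was 5 for sites called in DBA/2J only and 26 for missing ones, against 22 for all promoter sites.

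The DBA/2J list was the shortest of the 7, and apart from A/J no strain lacked more sites that the other 6 all had. DBA/2J had 24082 sites, against 27891 to 29283 in the other 6 strains (28533 ± 571, mean and SD over strains, n = 6). The 1228 sites called in DBA/2J only were 2.45% of all sites, and sites called in 1 other strain alone numbered from 989 (CBA/J) to 7084 (A/J). The 980 sites missing in DBA/2J only were 1.96% of all sites, against 3237 missing in A/J only and 54 to 403 in the remaining strains. With every list shortened to the 26769 strongest peaks, the length of the DBA/2J list, 610 sites were missing in DBA/2J only, so part of the count moves with list length. With A/J left out of the comparison the count was 2122, and with C57BL/6J left out 1579. With 1 strain against 6, the exact two-sided permutation test could give no p under 0.286 for any of 32 summary measures. No difference between strains could therefore pass a test. DBA/2J was the lowest or highest strain in 9 of the 32, near the share of 0.286 that a strain picked at random would have. The 9 include the numbers of autosomal peaks and of sites, which are not separate from list length.

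**Figure D1:**
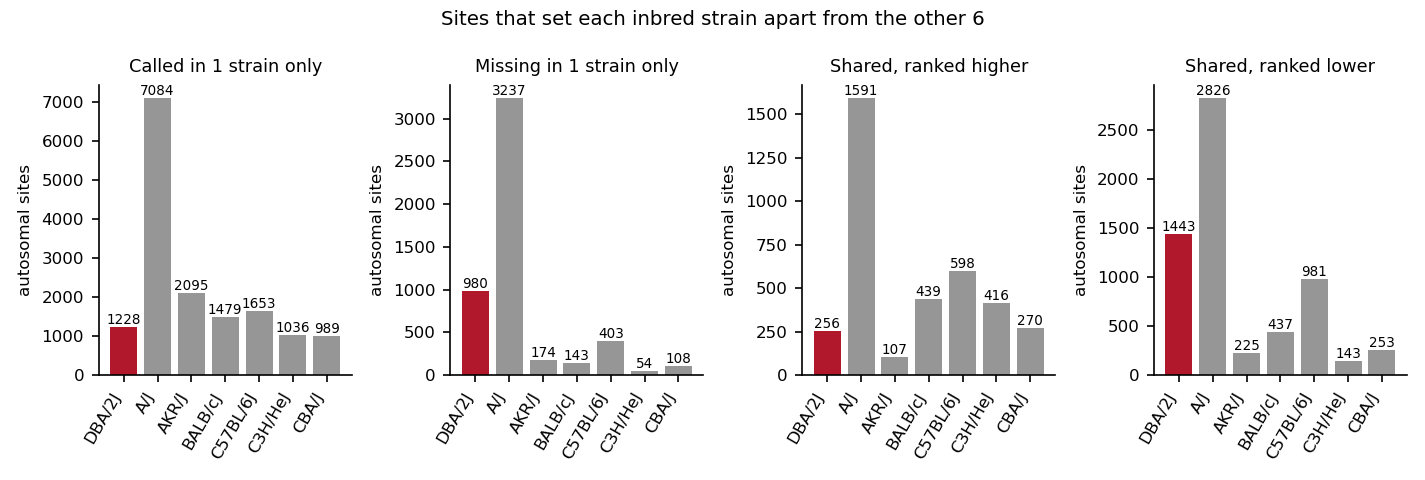
Bars give the number of autosomal sites (y axis) that set each strain (x axis) apart from the other 6 inbred strains, with DBA/2J in red. In the panels from left to right DBA/2J had 1228 sites called only there, 980 missing only there, 256 shared sites ranked higher and 1443 ranked lower, and A/J had the most of each kind. The y axes differ between panels.

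DBA/2J livers had peaks at the promoters of 9 of 12 hepatocyte marker genes, against 6 to 10 in the other strains, and at none of 8 Kupffer cell, 8 stellate cell, 8 lymphocyte or 10 brain and muscle markers. The other strains had none at Kupffer cell and lymphocyte markers, 0 to 3 at stellate cell and 0 to 2 at brain and muscle markers. Peaks stood at the promoters of 2 of 8 endothelial and 2 of 8 cholangiocyte markers in DBA/2J, against 0 to 4 and 2 to 3 in the other strains. Markers with a DBA/2J-only site were Csf1r (percentile 7.33), Kdr (0.68), Pecam1 (19.2), Reln (47.7), Epcam (10.07) and Sox9, and a distal site of Reln, a stellate cell marker, was at 68.1 in DBA/2J, against 19.4 to 57.7. Their part in the results was not tested.

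Sites called in DBA/2J only were short, weak and mostly distal, as single-strain sites of most other strains were. Their median width was 240 bp, against 250 to 425 bp for sites called in 1 other strain only and 494 bp over all sites. Their median percentile in DBA/2J was 14.3, with quartiles of 6.16 and 26.0, against medians of 9.34 to 22.3 for the single-strain sites of the others. Only 65 of the 1228 were above the 50th percentile. A peak of another strain lay within 500 bp of 294 of them (23.9%), and 310 were more than 10 kb from any. With a peak within 500 bp counted as a call, 4 of the 10 promoter sites and 7 of the 10 distal sites described next were still called in DBA/2J only.

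The leading promoter site belonged to Gm13290. It lay 728 bp from the start of the gene, ranked at the 99.7th percentile of the DBA/2J list, and was 8225 bp from the nearest peak of another strain. The promoter site of Khnyn, whose protein takes part in antiviral RNA decay, was at percentile 52.8 in DBA/2J and 44.1 in BXH2/TyJ, with no peak in the 6 other inbred strains or in BXH19/TyJ. Slc3a2 encodes the heavy chain of amino acid transporters, and its site at percentile 48.8 was 100 bp from a peak of another strain. Dpagt1, the enzyme that starts N-glycan assembly, had a site at 47.7 and AI118078 a site at 45.5. Fbl, which encodes the nucleolar methyltransferase fibrillarin, had a site at percentile 44.2 that lay 434 bp from another strain's peak. Trim14, an adaptor in antiviral signalling, had one at 41.2 with a gap of 44 bp. Sites such as those of Trim14, AI118078 and Slc3a2 lie beside peaks that other strains had too. Ugt1a6a, which glucuronidates phenols, and Cbs, which condenses homocysteine with serine, each had a site at percentile 37.4, and there the nearest peak of another strain was 5913 bp and 6448 bp away.

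The leading distal site was in an intron of Atp6v1h, a subunit of the vacuolar proton pump (chr1:5099414-5099735). Its percentile was 98.8 in DBA/2J, the nearest peak of the other 6 strains was 25692 bp away, and its sequence is the tandem repeat printed above. Gm6483 followed at 97.2 (chr8:19694207-19694477). Gm4694 had 3 of the 10 leading distal sites, at percentiles 91.8, 89.9 and 84.2 (the first at chr9:123842900-123843747). A site 51394 bp from the start of Ezh2, the histone H3 lysine 27 methyltransferase, was at percentile 86.8 in DBA/2J and 49.2 in BXH2/TyJ. Gm15319 also had 3 sites, at 84.0, 83.2 and 83.1 in DBA/2J, all of which BXH2/TyJ also had, at 54.4, 56.4 and 41.4. Gm7697 closed the group at 82.9, and DBA/2J alone had peaks at 5 of the 7 sites given to that gene.

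BXH2/TyJ and BXH19/TyJ, whose lists played no part in choosing the sites, had peaks at 125 (10.2%, 95% interval 8.54% to 12.01%) and 25 (2.04%, 1.32% to 2.99%) of the 1228 sites. Neither had a peak at 1084 of them (88.3%). By the rule, both parents of these strains lack a peak at every site called in DBA/2J only, so low shares are partly built in. At least 1 recombinant strain had a peak at 11.7% of these sites, against 17.6% to 32.3% of the sites called in 1 other strain only. The BXH2/TyJ share was higher at stronger DBA/2J peaks: 6.58% of the 456 sites up to percentile 10, 15.8% of the 260 sites between 25 and 50, and 40% of the 20 sites above 75. The deposited list of the most variable positions, which the authors drew from read counts in the same libraries, covered 60 of the 1228 sites (4.89%), against 5.002% of all sites. Here too the share differed by strength, with 1.75% up to percentile 10 and 45% above 75, so the stronger DBA/2J-only sites were more often on the authors' list. Strong sites were few and clustered. A chromosome 8 window described below held 31 of the 1228 sites, at a median percentile of 58.5, and 18 of the 125 BXH2/TyJ peaks. A chromosome 9 window near Gm4694 held 7, at a median of 81.8, and 5 of these were on the authors' list. Neither trend was tested without these clusters.

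Sites missing in DBA/2J only were wider and stood more often at promoters than sites called in DBA/2J only. Their median width was 684 bp, against 496 to 757 bp for sites missing in 1 other strain only. A missing site merges peaks of 6 strains, while a DBA/2J-only site holds DBA/2J peaks alone, so a greater width of missing sites is partly built in. The weakest of the other 6 strains had a median percentile of 16.5 at these sites and the mean of the 6 a median of 41.4, and at 295 sites all 6 were above the 25th percentile. C57BL/6J was the weakest of the 6, with a median of 32.4, against 41.9 in AKR/J, 42.0 in BALB/cJ, 43.6 in CBA/J, 46.2 in C3H/HeJ and 50.1 in A/J. The nearest DBA/2J peak was a median of 7367 bp away, and within 500 bp at 106 sites (10.8%). Peaks of BXH2/TyJ stood at 891 of these 980 sites (90.9%, 88.9% to 92.6%) and those of BXH19/TyJ at 935 (95.4%, 93.9% to 96.6%). Both parents of these strains have a peak at every missing site, and at sites called in all 7 the shares were 98.8% and 99.0%.

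Some of these sites were among the strongest peaks of the other strains. At the promoter of Ndel1, a regulator of dynein (chr11:68665827-68666946), no DBA/2J peak was called, against percentiles of 98.6 in A/J, 97.9 in AKR/J, 96.6 in BALB/cJ, 95.4 in C57BL/6J, 98.6 in C3H/HeJ and 98.2 in CBA/J. The nearest DBA/2J peak was 11586 bp away. At Mapk7, which encodes the kinase ERK5 (chr11:61306976-61308501), DBA/2J again had no peak, against 95.1 in A/J, 98.0 in AKR/J, 99.0 in BALB/cJ, 85.9 in C57BL/6J, 98.9 in C3H/HeJ and 99.5 in CBA/J. Both sites cover the start of the gene, and both recombinant strains had them at 95.1 or above. Necap2, an endocytosis protein, was at 79.1 to 93.1 in the other 6 strains, Uhrf1bp1l at 71.8 to 95.4 and Zfp280d at 65.5 to 90.1. At Zfp280d the nearest DBA/2J peak was 133146 bp away. Ubtf, the RNA polymerase I transcription factor, was at 63.4 to 92.8 in the others, Tmem56 at 62.2 to 79.6 and Luc7l, a splicing factor, at 60.7 to 81.0. Masp2, the protease of the lectin pathway of complement, was at 62.4 to 69.8, but a DBA/2J peak lay 301 bp away. Arhgef19 was at 65.2 to 93.8 with a DBA/2J peak 343 bp away.

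Among distal sites without a DBA/2J peak, the site nearest to Rps6ka1, which encodes the ribosomal S6 kinase RSK1, led with percentiles of 65.8 to 89.8 in the other strains (chr4:133368840-133370997). It lay 37985 bp from the nearest DBA/2J peak. Krr1 (chr10:111271999-111272398) had the narrowest range over the other 6 among the leading distal sites, from 63.0 in C57BL/6J to 69.9 in BALB/cJ, and a DBA/2J peak lay 250 bp away. Sites in Epha2, an ephrin receptor (53.3 to 85.9), and Hpn, the hepatocyte surface protease hepsin (52.8 to 68.0), were also called in every strain but DBA/2J. The site nearest to the start of St3gal4, a sialyltransferase, lay 22123 bp from it in an intron of Dcps, at 55.4 to 72.9 in the other 6, with a DBA/2J peak 456 bp away. In the intron of Efna5, an ephrin ligand, the other 6 were at 51.2 to 78.6 and the nearest DBA/2J peak was 618443 bp away. With a peak within 500 bp counted as a call, 8 of the 10 leading promoter and 8 of the 10 leading distal sites were still missing in DBA/2J only.

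**Figure D2:**
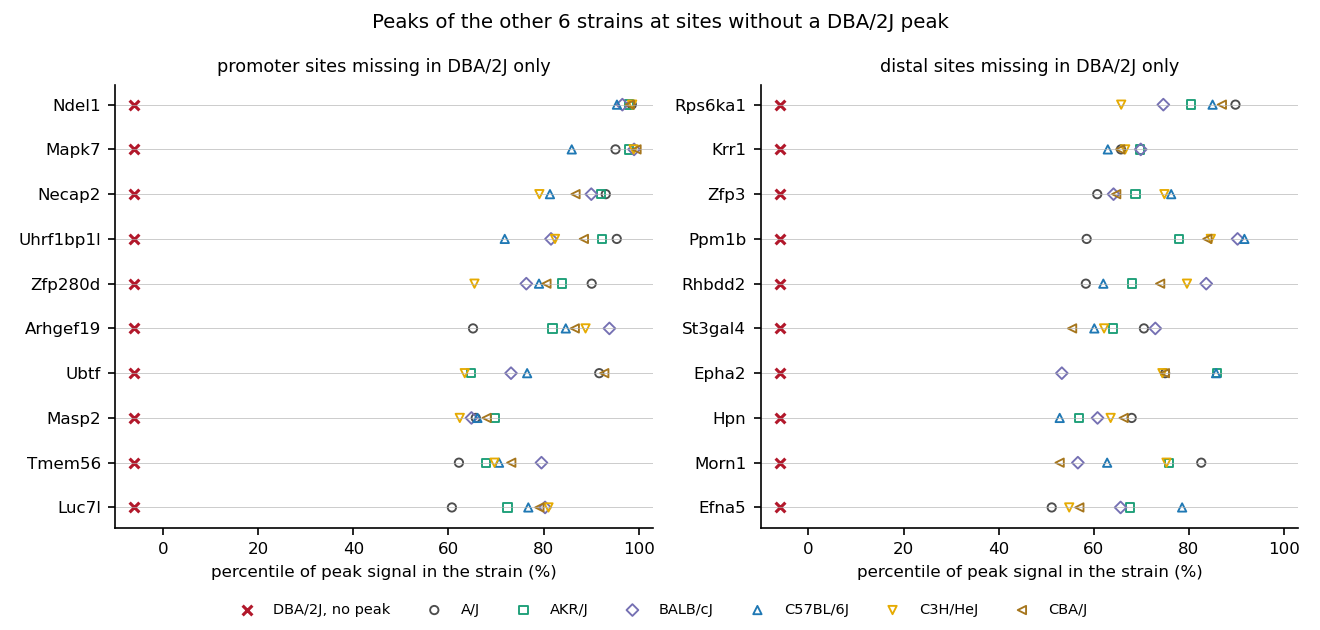
Each row is a site called in the other 6 inbred strains and not in DBA/2J, named by its nearest gene, and the x axis is the percentile of the peak within its strain. Red crosses left of 0 mark the absent DBA/2J peak and have no value. Open symbols are the other strains, which at Ndel1 sit between 95.4 and 98.6 and at Krr1 between 63.0 and 69.9.

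Sites called in DBA/2J only and sites missing there lay in different places. Promoters held 157 of the 1228 sites called in DBA/2J only (12.8%, 10.97% to 14.8%) and 383 of the 980 sites missing there (39.1%, 36.0% to 42.2%), against 33.5% of all sites. Introns held 432 sites called in DBA/2J only (35.2%) and 215 of those missing (21.9%), against 27.5% of all. Of sites called in DBA/2J only 485 (39.5%) were intergenic and 154 (12.5%) distal exonic, and of those missing 300 (30.6%) were intergenic and 82 (8.37%) distal exonic. The same order of promoter shares stood in every other strain but A/J, with promoters at 6.67% to 10.04% of sites called in that strain only and 32.2% to 50.4% of those missing there, while in A/J the shares were 46.7% and 10.6%. The shares depend on which strains stand beside DBA/2J: without A/J, promoters made up 19.3% of sites called in DBA/2J only and 23.9% of those missing there. Few of them were neighbours, as 4 missing sites had a DBA/2J-only site within 500 bp and 22 within 5000 bp.

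**Figure D3:**
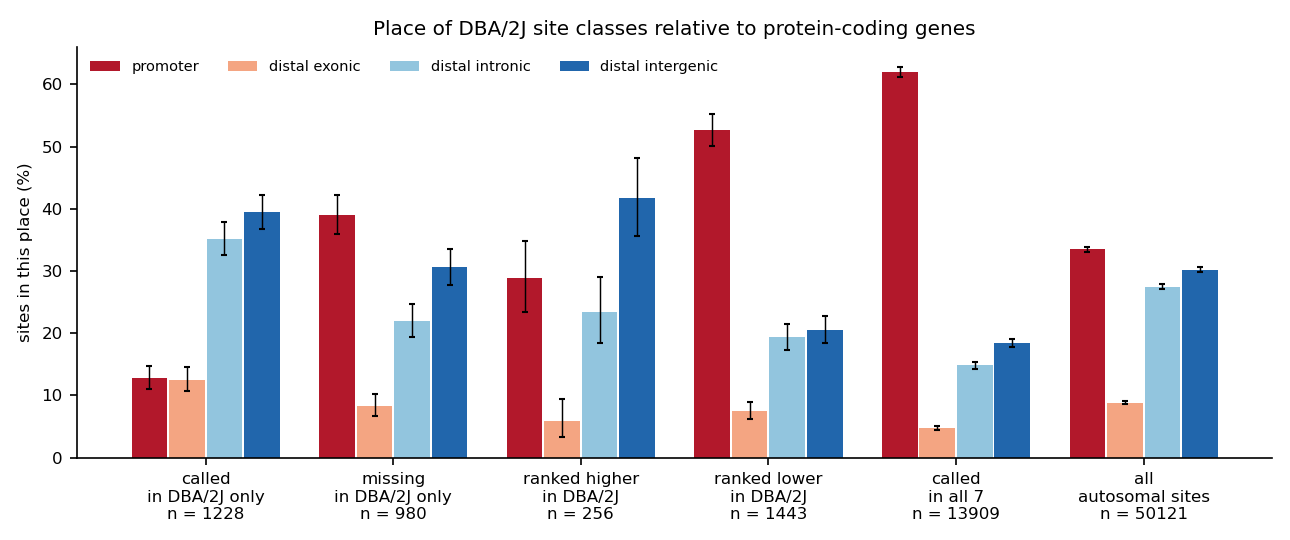
Bars give the share of sites (y axis, percent) in each place relative to protein-coding genes for 6 classes of sites (x axis, with n), and error bars are exact 95% binomial intervals. The promoter bar stands at 12.8% for sites called in DBA/2J only, 39.1% for sites missing there, 28.9% for sites ranked higher, 52.7% for sites ranked lower, 62.1% for sites called in all 7 and 33.5% for all sites.

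DBA/2J shared more with some strains than with others. Sites called in DBA/2J and exactly 1 other inbred strain numbered 484 with A/J, 362 with C57BL/6J, 111 with C3H/HeJ, 111 with CBA/J, 91 with BALB/cJ and 63 with AKR/J. Sites missing in DBA/2J and exactly 1 other numbered 1121 with A/J and 595 with C57BL/6J, against 33 to 131 with the remaining strains. Of all DBA/2J sites, 68.0% were also called in A/J, against 81.5% to 84.5% in each of the other strains.

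At the 13909 sites called in all 7, the DBA/2J percentile was compared with the mean of the other 6. A site was called higher where the difference was at least 20 points and DBA/2J was above all 6, and lower where DBA/2J was at least 20 points under that mean and under all 6. By this rule 256 sites (1.84%) ranked higher in DBA/2J and 1443 (10.4%) ranked lower, with a median difference of -1.996 points over all 13909. Another 112 sites were at 20 points or more without exceeding all 6, and 409 were at -20 or less without falling under all 6. The called differences nearest to the threshold were 20.01 and -20.01, and the nearest uncalled ones 19.98 and -19.99.

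The excess of lower ranks depended on the scale. The number of shared sites, 13909, was 52.5% of the number of autosomal peaks in the DBA/2J list, against 46.0% to 47.2% in the other lists. Their median percentile was 71.0 in DBA/2J, against 74.3 to 76.4 in the other 6, so these sites reach further down the DBA/2J list. With percentiles taken among the shared sites alone, 873 sites ranked higher and 867 lower in DBA/2J, so that 49.8% of the calls were lower in place of 84.9%, and the median difference was 0.16. On a log2 scale of signal, centred on the median of the shared sites and with a distance of at least 1, 177 sites were higher and 27 lower. Of the 256 higher sites 235 were called by the shared percentile too, as were 730 of the 1443 lower ones. Differences at single sites are therefore given with the median of -1.996 as their baseline, and the leading sites with their call under the other scales. When each list was limited to its 20000 strongest peaks, 1 of the 8 leading higher promoters, 1 of the 8 higher distal sites and none of the 16 lower ones were still called in all 7.

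**Figure D4:**
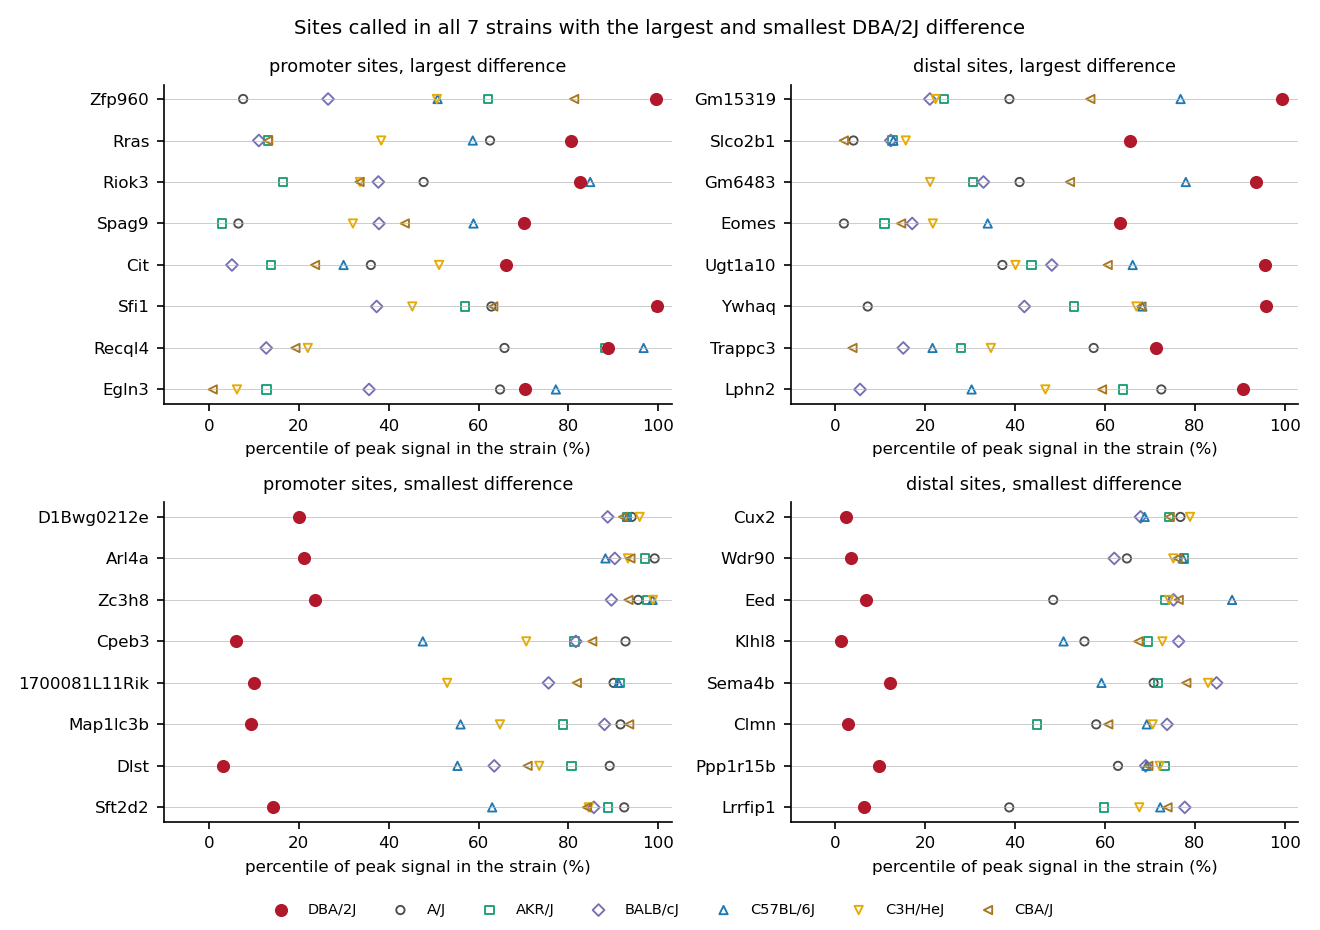
Rows are sites called in all 7 inbred strains with the largest (top) and smallest (bottom) difference between DBA/2J and the mean of the other 6, at promoters (left) and distal places (right), named by nearest gene, and the x axis is the percentile within the strain. Filled red points are DBA/2J and open symbols the other strains. At Slco2b1 DBA/2J sits at 65.6 and the others between 1.9 and 15.6, and at Cux2 DBA/2J sits at 2.4 and the others between 67.9 and 78.9.

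Among distal sites ranked higher in DBA/2J, the leading one was near Gm15319 (chr8:19984119-19985289), at 99.3 in DBA/2J, against 21.0 to 76.8 in the other 6, a difference of 59.4 points. Slco2b1, an organic anion transporter of the liver, stood furthest from the other strains' range. Its site (chr7:106797221-106797501) was at 65.6 in DBA/2J, against 4.0 in A/J, 12.7 in AKR/J, 12.3 in BALB/cJ, 12.9 in C57BL/6J, 15.6 in C3H/HeJ and 1.9 in CBA/J. A second site of this gene, 5218 bp from the nearest peak of any other strain, was called in DBA/2J only, at percentile 39.7. Near Eomes, a T-box factor of lymphocytes, DBA/2J was at 63.3, against 1.9 to 33.9. Near Ugt1a10, a glucuronosyltransferase of the same locus as Ugt1a6a, DBA/2J was at 95.5, against 37.1 to 66.1. Ywhaq, a 14-3-3 protein, had a site at 95.8 in DBA/2J, against 7.2 to 68.3, and Lphn2 one at 90.7, against 5.5 to 72.5. Trappc3, a vesicle tethering protein, was at 71.4 in DBA/2J, against 3.8 to 57.5. DBA/2J was above all 6 strains at each of these 7 genes, as a higher call, given to 1.84% of the shared sites, requires. The 8 leading distal sites, which also include one near Gm6483, were called on all 3 scales, with log2 differences of 1.35 to 2.56.

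At promoters the difference was led by Zfp960, a zinc finger gene, at 99.4 in DBA/2J, against 7.6 in A/J, 62.1 in AKR/J, 26.5 in BALB/cJ, 50.9 in C57BL/6J, 50.7 in C3H/HeJ and 81.3 in CBA/J. Rras, a Ras-related GTPase, was at 80.5 in DBA/2J, against 11.1 to 62.5, and Cit, the citron kinase of cytokinesis, was at 66.2, against 5.1 to 51.2. At Spag9, a scaffold of JNK signalling, DBA/2J was at 70.1, against 2.9 to 58.9. C57BL/6J was above DBA/2J at 3 of the leading promoters. Riok3, a kinase, was at 82.6 in DBA/2J, against 84.8 in C57BL/6J and 16.5 to 47.8 in the rest. Recql4, a DNA helicase, was at 88.7 in DBA/2J, against 96.7 in C57BL/6J and 12.7 to 88.1 in the rest, and Egln3, an oxygen sensor, was at 70.3 in DBA/2J, against 77.2 in C57BL/6J and 0.83 to 64.8 in the rest. Of the 8 leading promoters 5 were called higher by the shared percentile and 6 on the log2 scale.

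The lower ranks at promoters were wide apart from the other strains. D1Bwg0212e (chr1:39592258-39593306) was at 19.96 in DBA/2J, against 94.1 in A/J, 93.1 in AKR/J, 88.7 in BALB/cJ, 93.1 in C57BL/6J, 95.8 in C3H/HeJ and 92.2 in CBA/J. Arl4a, a small GTPase, was at 21.2 in DBA/2J, against 88.2 to 99.2, and Zc3h8 at 23.6, against 89.6 to 98.8. A lower call, given to 10.4% of the shared sites, requires DBA/2J to be under all 6, so the lack of overlap here follows from the rule. The recombinant strains, which the rule did not use, were at 89.99 or above at these promoters. Cpeb3, which binds mRNA and controls its translation, was at 5.9 in DBA/2J, against 47.6 to 92.7. Map1lc3b encodes the autophagosome protein LC3 and was at 9.3, against 56.0 to 93.5. Dlst, the succinyltransferase subunit of the 2-oxoglutarate dehydrogenase complex in the citric acid cycle, was at 3.2, against 55.3 to 89.2, and Sft2d2 was at 14.3, against 63.0 to 92.4. All 8 were called lower by the shared percentile, and 6 on the log2 scale.

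Of the distal sites ranked lower, the one in an intron of Cux2, a homeobox repressor with a sex-biased role in mouse liver (chr5:122468668-122469987), came first. It was at 2.4 in DBA/2J, against 76.8 in A/J, 74.2 in AKR/J, 67.9 in BALB/cJ, 68.8 in C57BL/6J, 78.9 in C3H/HeJ and 74.4 in CBA/J, while BXH2/TyJ and BXH19/TyJ were at 58.2 and 69.9. Wdr90 was at 3.5 in DBA/2J, against 62.0 to 77.6. Eed, a core subunit of Polycomb repressive complex, was at 6.8, against 48.5 to 88.3. Klhl8 was at 1.2, against 50.8 to 76.4, and Ppp1r15b, which restrains the integrated stress response, at 9.7, against 62.9 to 73.2. All 8 leading sites were called lower by the shared percentile and none on the log2 scale, where the differences were -0.84 to -0.43.

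By place, the median difference was -1.44 at shared promoters, -6.18 at distal exonic, -3.92 at intronic and -2.57 at intergenic sites. With the shared percentile the same medians were 0.58, -3.77, -0.78 and 0.22. Across the 13909 sites, which share libraries and are not independent, the difference had a Pearson r of -0.10 with GC content in DBA/2J, against 0.61 in A/J and -0.40 in C57BL/6J.

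Genes were counted by whether any of their sites was of a kind. Of 14748 genes with a site, 1026 (6.96%) had one called in DBA/2J only and 915 (6.2%) had one missing in DBA/2J only. Of the 9399 genes with a shared site, 248 (2.64%) had one ranked higher and 1314 (14%) one ranked lower. Lists of liver genes, chosen with earlier results of these data known, are described against these shares. Genes with many sites reach such counts more easily, so the share of sites is given as well. Both a DBA/2J-only and a DBA/2J-missing site were found at 107 genes.

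Hepatocyte transcription factors set the liver programme and had 13 sites per gene, against 3.40 over all genes. Of 29 such genes with a site, 10 (34.5%) had a site missing in DBA/2J only, but these were 10 of 377 sites (2.65%), near the 1.96% of all sites. They included distal sites of Foxa1 and Foxa2, pioneer factors of the liver. The Foxa1 site was at 77.2 in A/J, 58.2 in AKR/J, 57.4 in BALB/cJ, 9.6 in C57BL/6J, 55.2 in C3H/HeJ and 57.1 in CBA/J and was not called in DBA/2J. The Foxa2 site was at 22.4 to 62.6 in the other 6, and a site of Prox1, a regulator of hepatocyte identity, at 31.7 to 57.9. At Cebpa, which encodes a factor of hepatocyte differentiation, 2 neighbouring shared sites went opposite ways. The first (chr7:35913808-35914734) was at 72.9 in DBA/2J, against 18.3 to 57.2, and the next (chr7:35914837-35915870) at 41.1, against 59.0 to 68.1, but by the shared percentile the lower call was lost. The main promoter site of Rora, a nuclear receptor of the clock and of lipid metabolism, was at 27.3 in DBA/2J, against 95.4 in A/J, 86.0 in AKR/J, 91.0 in BALB/cJ, 45.3 in C57BL/6J, 75.9 in C3H/HeJ and 94.8 in CBA/J. Nr1i3, the xenobiotic receptor CAR, was at 23.2 at its promoter, against 42.4 to 83.5. At Bcl6, a transcriptional repressor, both promoter sites were lower in DBA/2J, at 34.9, against 64.4 to 79.1 in the other 6, and at 20.7, against 28.2 to 76.5. At 2 intronic sites DBA/2J was higher, at 72.6, against 33.9 to 71.7 in the other 6, and at 55.7, against 8.9 to 54.1. In this list 15 of 93 shared sites (16.1%) ranked lower and 3 higher, and by the shared percentile 8 lower and 8 higher.

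In fatty acid and triglyceride synthesis, 8 of 35 genes (22.9%) had a missing site, which were 2.99% of the list's 268 sites. Dgat2, which makes triglyceride, lacked an intronic site that was at 24.8 to 87.0 in the other 6. Acly, which makes cytosolic acetyl-CoA, lacked an exonic site at 9.7 to 50.1 in the others, and Acaca, acetyl-CoA carboxylase, a promoter site at 7.1 to 48.2. Srebf1, the lipogenic transcription factor, had 3 sites called in DBA/2J only, at percentiles 21.5, 19.96 and 0.14, and lacked 1 promoter site at 12.5 to 58.0 in the others. The Acacb promoter was at 35.8 in DBA/2J, against 48.2 to 91.8, and that of Gpam, the first enzyme of glycerolipid synthesis, at 24.0, against 46.0 to 84.4. Of the list's 73 shared sites 7 (9.59%) ranked lower in DBA/2J, against 10.4% of all shared sites, and none ranked higher. By the shared percentile 3 ranked higher (4.11%) and 4 lower (5.48%), against 6.28% and 6.23% of all.

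In fatty acid oxidation and ketogenesis, 7 of 32 genes (21.9%) had a missing site, 3.196% of 219 sites. Ppara, the receptor that drives this pathway, lacked a distal site that was at 75.5 in A/J, 67.4 in AKR/J, 61.4 in BALB/cJ, 28.5 in C57BL/6J, 49.3 in C3H/HeJ and 51.9 in CBA/J. A shared distal site of Ppara was at 6.6 in DBA/2J, against 35.7 to 73.6. Acsl1, a long-chain acyl-CoA synthetase, lacked a distal site at 29.5 to 76.0 in the others. Sites called in DBA/2J only were 2 of the 219 (0.913%), against 2.45% of all sites. Of the list's 67 shared sites 5 (7.46%) ranked lower, against 10.4% of all shared sites, and none ranked higher. By the shared percentile 1 ranked lower and 4 higher.

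Cholesterol, bile acid and lipoprotein genes had sites called in DBA/2J only at 4 of 43 genes and missing sites at 4 (9.30% each, against 6.96% and 6.2% of all genes). These were 1.53% and 1.91% of the list's 262 sites, under the 2.45% and 1.96% of all sites. The promoter of Scarb1, the HDL receptor, was at 14.7 in DBA/2J, against 43.0 to 69.8, and that of Scap, which escorts SREBP, at 15.1, against 48.4 to 72.1. By the shared percentile both genes had a site called lower, and Scarb1 also had a site called higher. A distal site of Insig1, which retains SREBP in the endoplasmic reticulum, was higher at 74.9 in DBA/2J, against 21.6 to 69.8.

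Among glucose and insulin genes, 6 of 31 (19.4%) had a DBA/2J-only site, or 3.15% of 222 sites, and 4 (12.9%) a missing one, or 1.80% of sites. G6pc, which releases glucose from the liver, had a distal site at 63.6 in DBA/2J, against 7.8 to 50.9 in the other 6. Near Irs2, an insulin receptor substrate, a site was at 0.41 in DBA/2J, against 52.3 in A/J, 55.5 in AKR/J, 49.6 in BALB/cJ, 61.9 in C57BL/6J, 48.4 in C3H/HeJ and 53.2 in CBA/J. Pck1, the gluconeogenic carboxykinase, lacked a distal site that was at 2.7 in A/J and 51.7 to 77.4 in the others.

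Methionine, urea cycle and amino acid genes had 12 of 187 sites (6.42%) called in DBA/2J only, from 7 of 35 genes (20%), and 2 missing. Ass1, an enzyme of the urea cycle, carried 6 of the 12, at percentiles 38.8, 23.4, 11.8, 10.95, 2.98 and 0.14. Of these, 5 were intronic and 1 intergenic, and they were 436 to 9816 bp from the nearest peak of another strain. The Cbs promoter site at 37.4 was described above. Sds, serine dehydratase, had one at 21.2, Gldc, of the glycine cleavage system, at 12.9 and Tat, tyrosine aminotransferase, at 8.9. The promoter of Pemt, which makes phosphatidylcholine, was at 37.1 in DBA/2J, against 55.9 to 81.0.

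Acute phase and complement genes lacked 8 of 140 sites (5.71%) in DBA/2J only, at 7 of 40 genes (17.5%), and had 6 sites (4.29%) called in DBA/2J only, at 5 genes (F11, Masp1, Masp2, Orm3 and Saa3). Masp2 had both kinds. Hamp encodes the iron hormone hepcidin, and 2 of its sites had no DBA/2J peak, a promoter site at 41.1 in A/J, 49.2 in AKR/J, 58.4 in BALB/cJ, 74.1 in C57BL/6J, 59.95 in C3H/HeJ and 29.1 in CBA/J, and a site in an exon of the neighbouring gene Usf2, at 46.4 to 70.6. The nearest DBA/2J peaks were 9403 and 7733 bp away. The promoters of the complement genes C4b (29.6 to 78.7 in the other 6), C2 (55.2 to 75.3) and Masp2 were missing too, and exonic sites nearest to C8b (in C8a), Hp (in Txnl4b) and Serpinc1. Orm3, an orosomucoid, had a DBA/2J-only promoter site at 33.9. The list had only 19 shared sites. None ranked higher, against 1.84% of all shared sites, and 2 (10.5%) ranked lower, against 10.4% of all. The promoter of Itih4 was among the lower ones, at 18.5 in DBA/2J, against 41.4 to 75.8 in the other 6.

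Cytochrome P450 genes had DBA/2J-only sites at 4 of 30 genes and missing ones at 3, which were 3.05% and 2.29% of 131 sites. Cyp1a1 and Cyp1a2, inducible through the aryl hydrocarbon receptor, each lacked a promoter site, at 17.6 to 78.8 and 8.0 to 65.1 in the other 6. A distal site of Cyp1a2 was higher at 58.4 in DBA/2J, against 0.37 to 56.7. Near Cyp26a1, which breaks down retinoic acid, one site was missing (43.5 to 72.7 in the others) and its neighbour was at 22.5 in DBA/2J, against 41.5 to 79.8. The leading DBA/2J-only sites were those of Cyp2a5 (42.4) and Cyp2d9 (33.9), genes with close paralogues at which uniquely mapped reads are uncertain. Among conjugation and transport genes, Ugt1a1, which conjugates bilirubin, had a DBA/2J-only site at 47.2, and only Gstp1 of 44 genes lacked a site.

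The major urinary protein genes form a tandem cluster of near-identical copies. At Mup1 all 5 sites given to the gene were called in DBA/2J only, at percentiles 44.9, 16.9, 15.8, 8.2 and 1.9, between 52141 and 102979 bp from any peak of another strain. In the interferon and antigen presentation list, 3 of 35 genes (8.57%) had a DBA/2J-only site and 2 a missing one, or 4.90% and 1.96% of 102 sites. H2-D1, a class I histocompatibility gene, had 3 DBA/2J-only sites at 64.8, 58.0 and 14.3. Its shared site at 80.9 in DBA/2J, against 17.7 to 64.4, was higher, and so was the promoter of Psmb8, an immunoproteasome subunit, at 68.0, against a highest of 57.04 in C57BL/6J. Genes of both families are multicopy, and the mapping of reads there is uncertain. Of 8 genes at which DBA/2J is known to carry a variant allele, Alad, a haem synthesis enzyme with extra copies in this strain, had 2 DBA/2J-only sites, at 64.7 and 18.2. BXH2/TyJ also had the first, at 38.7. The Alad promoter was at 99.7 in DBA/2J, against 79.0 in C57BL/6J and 99.9 in each of the rest.

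Clock genes included both higher and lower ranked sites. The Dbp promoter was at 78.8 in DBA/2J, against 17.5 to 78.6 in the other 6, and the Npas2 promoter at 65.2 in DBA/2J, against 12.5 to 58.1. An intronic site of Arntl, the clock activator BMAL1, was at 8.0 in DBA/2J, against 29.9 to 76.1, and a distal site of Bhlhe40, a clock repressor, at 12.7, against 43.6 to 77.6. In all 7 of 39 shared sites (17.9%) were lower and 2 higher, and by the shared percentile 4 lower and 2 higher.

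Sites called in DBA/2J only were unevenly spread. Of 2110 autosomal windows of 1 Mb with a site, 694 held at least 1 and 61 at least 4. The densest, on chromosome 8 at 19000001 to 20000000 bp, held 31 of them among 98 sites, near Gm6483, 4930467E23Rik and Gm15319. DBA/2J had a peak at 96 of the 98 sites, against 50 in A/J, 35 in AKR/J, 8 in BALB/cJ, 48 in C57BL/6J, 16 in C3H/HeJ and 31 in CBA/J. The 31 sites had a median percentile of 58.5, against 14.3 over all DBA/2J-only sites, and BXH2/TyJ had a peak at 18 of them and BXH19/TyJ at none. None was a promoter. On the authors' variable list were 1 of these 31 sites and 30 of the 98 in the window. Of its 8 sites called in all 7 strains, 5 ranked higher in DBA/2J and none lower.

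On chromosome 1 at 85000001 to 86000000 bp, near A530032D15Rik and C130026I21Rik, 17 of 62 sites were called in DBA/2J only. DBA/2J had a peak at 51 and C57BL/6J at 43, against 0 to 6 in each other strain. The window on chromosome 17 at 30000001 to 31000000 bp had 10 of 67, among them sites at Btbd9, Glo1, the glyoxalase of methylglyoxal removal, and Glp1r, the incretin receptor. There DBA/2J had 37 sites, against 45 in A/J and 14 to 25 in the rest. At Gm4694 on chromosome 9, 7 DBA/2J-only sites lay together with a median percentile of 81.8.

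Missing sites lay in 626 windows, with at least 4 in 28. The densest held 9 of 156 sites, on chromosome 2 at 167000001 to 168000000 bp, at B4galt5, Snai1, Tmem189 and Ptpn1, a phosphatase of insulin signalling. DBA/2J had 78 sites there, against 86 to 108 in the other strains. The next held 8 of 104, on chromosome 8 at 87000001 to 88000000 bp, at genes that include Cacna1a, Ier2, Nfix and Dand5, with 53 sites in DBA/2J, against 66 to 85. Windows with 6 each included chromosome 3 at 121000001 to 122000000 bp, at Arhgap29, Abca4, Gm4609 and Gclm, a subunit of glutathione synthesis, with 22 sites in DBA/2J and 24 in A/J, against 36 to 40 in the rest. Chromosome 4 at 140000001 to 141000000 bp held 6 missing and 8 DBA/2J-only sites of 116, at genes that include Necap2, Arhgef19 and Epha2.

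**Figure D5:**
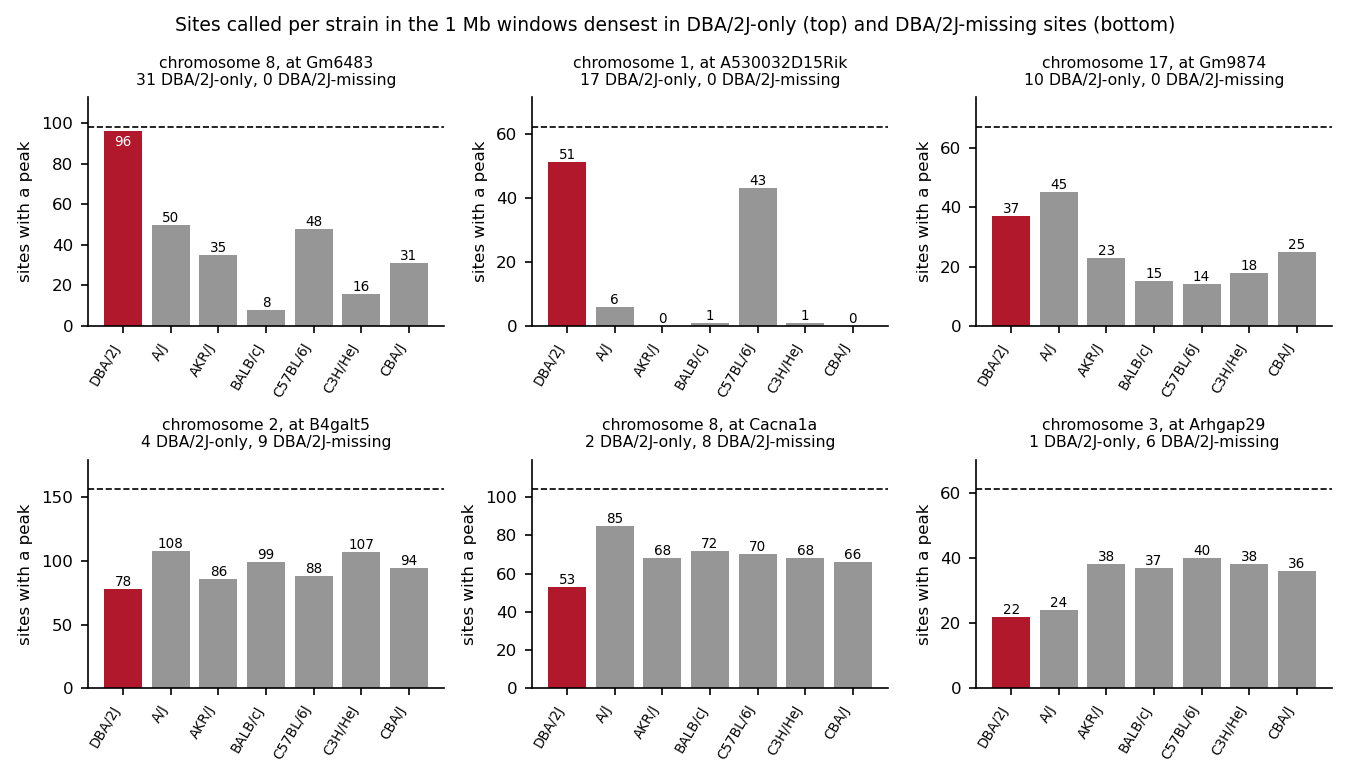
Bars give the number of sites with a peak (y axis) in each inbred strain (x axis) within the 1 Mb windows densest in DBA/2J-only sites (top) and DBA/2J-missing sites (bottom), and the dashed line is the number of sites in the window. In the chromosome 8 window at Gm6483 DBA/2J reaches 96 of 98, against at most 50 in any other strain, and in the chromosome 2 window at B4galt5 DBA/2J has 78, against 86 to 108.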

How the data were processed

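Liver FAIRE-seq peak lists of 9 strains were taken as deposited. The authors aligned reads with Bowtie to mm9 carrying each inbred strain's SNPs, and those of the recombinant strains to mm9 and to the C3H/HeJ version, kept uniquely mapped pairs without PCR duplicates, called peaks with F-seq at a feature length of 400 bp, and combined both mice of a strain by IDR. Not given in the sources used here are versions of Bowtie and F-seq, the cut-off of IDR, and which alignment gave each recombinant strain's list. Since no scaling of the deposited F-seq signal across strains was described, percentiles within each strain's list were compared. A site with several peaks of a strain took the highest. Reads that map to several places were dropped, which affects repeated genes. The deposited variable and common position lists were made by the authors with DESeq from read counts and served only for overlap.

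Peaks of the 7 inbred strains were merged into sites. BXH2/TyJ and BXH19/TyJ were not used to choose sites. A peak overlapping a site by 1 bp was a call, a site within 1000 bp of a protein-coding start a promoter, and places were read from the annotation of the same build. The named sites were the 10 promoter and 10 distal DBA/2J-only sites with the highest DBA/2J percentile, the 10 and 10 missing sites with the highest lowest-percentile among the other 6, the 8 and 8 shared sites with the largest and the smallest difference, the 3 densest 1 Mb windows of each kind, and list members with such a site. The text gives a part of them, and some list members are not reported here. Other windows and genes with several sites were named after their values were seen. Of 488 listed gene names 486 were matched, 3 by a synonym. The members and lists were chosen with earlier results of these data known. No test between strains can pass with 1 list per strain. Alternatives covered list length, overlap, strains left out, scale, threshold, promoter window and annotation. The merging and calling steps were checked on simulated data. Tools were samtools 1.23.1, blastn 2.17.0, Python 3.11.15, pandas 2.3.3, numpy 2.4.6, pysam 0.24.0, scipy 1.17.1 and matplotlib 3.10.9.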

Additional observations from a re-analysis of the deposited data

Results flagged for a closer look

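The DBA/2J list was far from the other 6 inbred strains in its length. It held 26769 peaks, of which 26488 were autosomal, and covered 24082 sites, against at least 29914 peaks, 29447 autosomal peaks and 27891 sites in every other strain. The gap between DBA/2J and the nearest strain was 0.818, 0.788 and 0.732 of the range over the 7 strains for these measures. Strains are not replicates of 1 group, and chance sets apart about 1 in 20 groups. Over 33 such measures DBA/2J stood apart in these 3 and A/J in 11.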

How the results depend on the processing

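No paired analysis was possible because each deposited list combines both mice of a strain. The count of sites called in DBA/2J only, 1228, stayed within 1.5 times under every alternative run, with 1301 to 1769 when 1 other strain was left out. Leaving out a strain can only raise this count, and adding the recombinant strains can only lower it. The stricter overlap rule could not change any call, as each peak lies wholly within its merged site. With the 20000 strongest peaks of each list, 422 sites were missing in DBA/2J only, 400 ranked higher and 666 lower, the missing sites had a promoter share of 51.4%, and the median difference was 0.40. With each list shortened to 26769 peaks the values were 610 missing, 416 higher, 900 lower and a median of 0.18. Percentiles among shared sites gave 873 higher, 867 lower and a median of 0.16, and the log2 scale 27 lower and a median of 0.0774. A threshold of 10 points gave 712 higher and 2229 lower, and one of 30 points 74 and 777.

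Leaving out 1 other strain gave 1017 to 2122 missing sites, 276 to 500 higher, 1437 to 2447 lower, a median of -2.89 to -1.70, and promoter shares of 12.5% to 19.3% for DBA/2J-only and 23.9% to 46.2% for missing sites. The extreme counts came without A/J (2122, 500 and 2447). Promoter shares of DBA/2J-only and missing sites were 7.17% and 35.4% with a 500 bp window, 23.2% and 45.3% with 2500 bp, and 15.1% and 42.6% with the starts of all annotated genes. With a peak within 500 bp counted as a call, the DBA/2J-only promoter share was 9.10%, and the DBA/2J percentile minus the mean of the others, with uncalled strains at 0, turned sign at Dpagt1 (-14.4), AI118078 (-11.6), Fbl (-41.5), Trim14 (-0.0788), Arhgef19 (3.98) and Spag9 (-0.0392).

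Over 102 alternatives of these 7 counts, shares and the median, 70 stayed within their limits, 28 moved and 4 reversed. The 70 include those of the stricter overlap rule, which could not move. The alternatives for the median difference and the scales for named shared sites and gene lists were chosen after seeing the data. The lists hold no read depth, and an absent peak does not show closed chromatin.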

Other observations

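Outside the autosomes, 654 sites lay on the sex chromosomes. DBA/2J had a peak at 266 of them, against 341 to 449 in the other inbred strains. Sites missing in DBA/2J only numbered 25, against 1 to 13 in each other strain, and sites called in DBA/2J only numbered 5, against 6 to 30 in the others except A/J, which had more. At 21 autosomal sites whose sequence resembled a LINE-1 repeat (at least 90% identity over 150 bp), DBA/2J had a peak at 19, against 18 in A/J, 12 in AKR/J, 12 in C57BL/6J, 6 in CBA/J and none in BALB/cJ and C3H/HeJ, and 1 of the 1228 DBA/2J-only sites was among them. By chromosome, the share of sites called in DBA/2J only ran between 1.77% on chromosome 10 and 3.52% on chromosome 8, and that of sites missing in DBA/2J only between 0.902% on chromosome 18 and 2.67% on chromosome 1.

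Among all genes, Gm15319 had 21 DBA/2J-only sites of 58, C130026I21Rik 13 of 47 and 4930467E23Rik 11 of 34. Selenbp2, which encodes a selenium-binding protein of the liver, had 7 of 13.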
